A study of Mus musculus with 2 samples.

Results

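The genes described here code for the insulin-like growth factor (IGF) system: the ligands Igf1 and Igf2, the receptors Igf1r, Igf2r and Insr, the IGF-binding proteins Igfbp1, Igfbp2, Igfbp3 and Igfbp4, and Igfals, the acid-labile subunit. They are 10 of the 19938 genes that the arrays measured through a probe set assigned to a single gene, and all 10 were found. The members were selected by membership of this system, with the levels of both tumours already known, so their differences are given as a description, with no test. Liver tumours were induced with DEN (diethylnitrosamine, an alkylating hepatocarcinogen) in wild-type (WT) mice and in HLF-deficient mice, and carcinoma tissue was profiled on 1 array per genotype. HLF is a transcription factor of the PAR bZIP family. Both mouse groups received DEN, and no untreated liver is part of the comparison. How the Hlf allele was made, the strain, sex and age of the mice, the dose of DEN and the number of tumours or mice behind each sample are not given in the sources used here.

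IGF1 is a circulating growth factor made mainly by hepatocytes under the control of growth hormone. IGF2 is its fetal counterpart; in rodents its liver expression is switched off after birth, and it often returns in liver tumours. Both ligands signal through the receptor tyrosine kinase IGF1R, and IGF2 also through an isoform of the insulin receptor, while the IGF2 receptor takes IGF2 up for degradation in lysosomes. In blood most IGF is held in a complex with IGFBP3 and the acid-labile subunit, and the other binding proteins carry the ligands in smaller complexes.

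Expression values are RMA levels on a log2 scale, and a difference is always HLF-deficient minus wild-type, so that a difference of 1 is 2-fold. With 1 array per genotype there was no replicate error, and whether a difference exceeds the spread between tumours of 1 genotype cannot be known. As a guide to the spread between probe sets alone, 715 genes measured by several probe sets gave an SD of 0.23 for the difference of 1 probe set. Probe sets of a gene share the same arrays, so errors of a whole array are not in this SD. The medians of the arrays over 35556 probe sets were 3.73 for the WT tumour and 3.61 for the HLF-deficient tumour. A floor of expression was set at 2.98, the 95th percentile of odorant, vomeronasal and taste receptor probe sets, and the 14575 genes at or above it on at least 1 array were compared. Hlf itself, the targeted gene, was at 5.13 in the WT tumour and 3.79 in the HLF-deficient tumour, which goes with the labels. Liver origin was checked on hepatocyte markers, among them Alb, Ttr and Apoa1: all 7 were above the floor on both arrays, with a mean log2 level of 11.40 in the WT tumour and 11.45 in the HLF-deficient tumour. These markers cannot tell carcinoma from liver without tumour, so the carcinoma label was not checked.

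Of the 10 IGF system genes, 3 were at least 2-fold higher without HLF, namely Igfbp3, Igf2 and Igfbp1, and 0 were lower by 2-fold. Among all genes compared, 1.5% were higher and 0.364% lower by this rule. As deposited, the other 7 members lay within 1.5-fold, as did 90.5% of all genes. The IGF system so split into 3 genes with large differences and 7 with smaller ones. With a 1.5-fold rule (log2 0.585) on these values the same 3 genes were higher and 0 were lower, against 6.37% and 3.11% of all genes. Other scalings took Igf1 and Igf2r past this line. Igf1 was at -0.60 after quantile normalization and -0.63 with the trend with level removed. Igf2r was at 0.70 with the arrays centred. The median difference of the members was 0.18, beside 0.07 for all genes compared. Relative to that common median, 6 members were on the positive and 4 on the negative side. All 10 were above the floor on both arrays, so no fold is a bound.

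**Figure D1:**
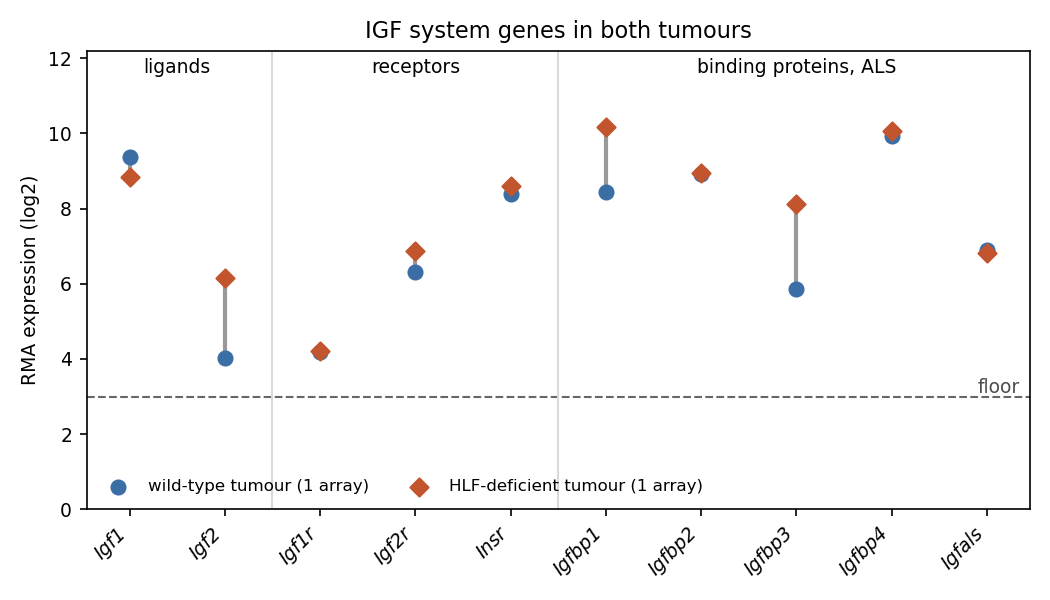
RMA expression (log2, vertical axis) of the 10 IGF system genes in the WT tumour (circles) and the HLF-deficient tumour (diamonds), 1 array each, with no error bars because there are no replicates; the dashed line is the floor of 2.98. Wide gaps are seen for Igf2, Igfbp1 and Igfbp3, and heights of different genes are not comparable because each probe set has its own response.

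The ligands differed in opposite directions. Igf2 had a log2 level of 4.03 in the WT tumour, 1.06 above the floor, and 6.14 in the HLF-deficient tumour. The difference was 2.11, or 4.31-fold, and only 20 of the 14575 genes had a larger positive one, which put Igf2 at rank 21. Igf1, the postnatal ligand, had a level of 9.36 in the WT tumour and 8.85 in the HLF-deficient tumour. Its difference of -0.51, or 1.42-fold lower, was the most negative of the 10 members, with 741 genes lower still. Set against each other, the change of Igf2 exceeded that of Igf1 by 2.61 on the log2 scale. These are whole-tissue measurements, in which fewer cells of a type and less RNA per cell cannot be told apart.

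None of the receptors passed 2-fold. Igf1r, the signalling receptor of both ligands, had nearly the same level in both tumours, 4.18 in the WT tumour and 4.22 in the HLF-deficient one, a difference of 0.04. Insr, the insulin receptor, was measured by 2 probe sets. The brighter one read 8.39 in the WT tumour and 8.61 in the HLF-deficient tumour, and the dimmer one 7.07 and 7.40. Their differences of 0.22 and 0.33 had the same sign and lay 0.11 apart. Igf2r, the clearance receptor of IGF2, was at 6.31 in the WT tumour and 6.88 in the HLF-deficient tumour. Its difference of 0.58, or 1.49-fold, was the largest among the receptors and lay just inside 1.5-fold. It was 0.36 after removal of the trend of the differences with level and 0.70 with the arrays centred on their medians. Igf2r is imprinted in the mouse together with Airn, the antisense transcript that starts inside it. Airn differed by 0.78, with levels of 4.68 in the WT tumour and 5.46 in the HLF-deficient tumour; the sources used here do not say whether the probes of this overlapping pair tell the strands apart.

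Among the binding proteins, Igfbp3 and Igfbp1 were much higher in the HLF-deficient tumour while Igfbp2 and Igfbp4 were nearly level. Igfbp3, the main carrier of IGF in serum, had a log2 level of 5.86 in the WT tumour and 8.12 in the HLF-deficient tumour. The difference of 2.27, or 4.81-fold, was the largest of the 10 members and ranked 14 among all genes compared. Igfbp1, a carrier made by hepatocytes whose transcription insulin represses, had a level of 8.44 in the WT tumour and 10.18 in the HLF-deficient tumour. Its difference of 1.74, or 3.35-fold, ranked 46. Igfbp2, which is abundant in fetal liver, was at 8.92 in the WT tumour and 8.95 in the HLF-deficient tumour, and so differed by 0.03, a value that turned negative, to -0.10 at the lowest, after quantile normalization and after removal of the trend with level. Igfbp4, an inhibitory carrier, was at 9.93 in the WT tumour and 10.07 in the HLF-deficient tumour, and so differed by 0.14.

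Igfals codes for the subunit that joins IGFBP3 and IGF in the large serum complex. Its level was 6.89 in the WT tumour and 6.81 in the HLF-deficient tumour, and so differed by -0.09. Centring the arrays gave 0.03 for it, quantile normalization -0.27 and removal of the trend -0.30. Of the genes for that complex, Igfbp3 was beyond 2-fold, at 2.27, while Igfals was at -0.09. Of the ligands, Igf1 was at -0.51 and Igf2 at 2.11. The change of Igfbp3 exceeded that of Igfals by 2.35 and that of Igf1 by 2.77 on the log2 scale.

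**Figure D2:**
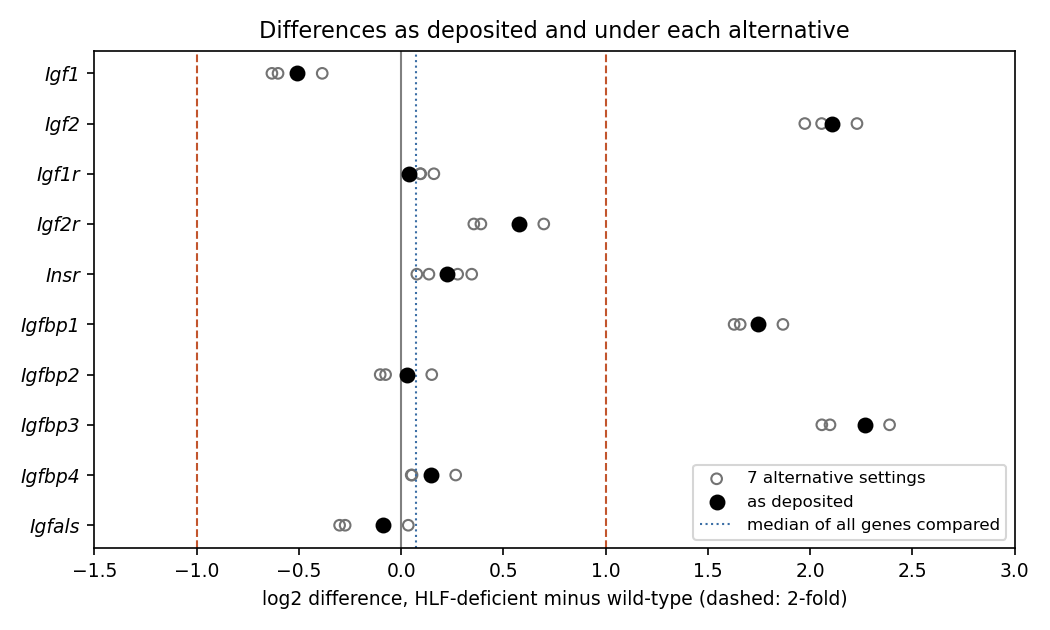
Log2 difference, HLF-deficient minus wild-type (horizontal axis), for each IGF system gene as deposited (filled) and under 7 alternative settings (open, overlapping where equal); dashed lines mark 2-fold and the dotted line the median of all genes compared, 0.07. Igfbp3, Igf2 and Igfbp1 stay beyond 2-fold at every setting shown and the other 7 genes stay inside it. The floor and probe set settings cannot move Igfbp3, Igf2 or Igfbp1.

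**Figure D3:**
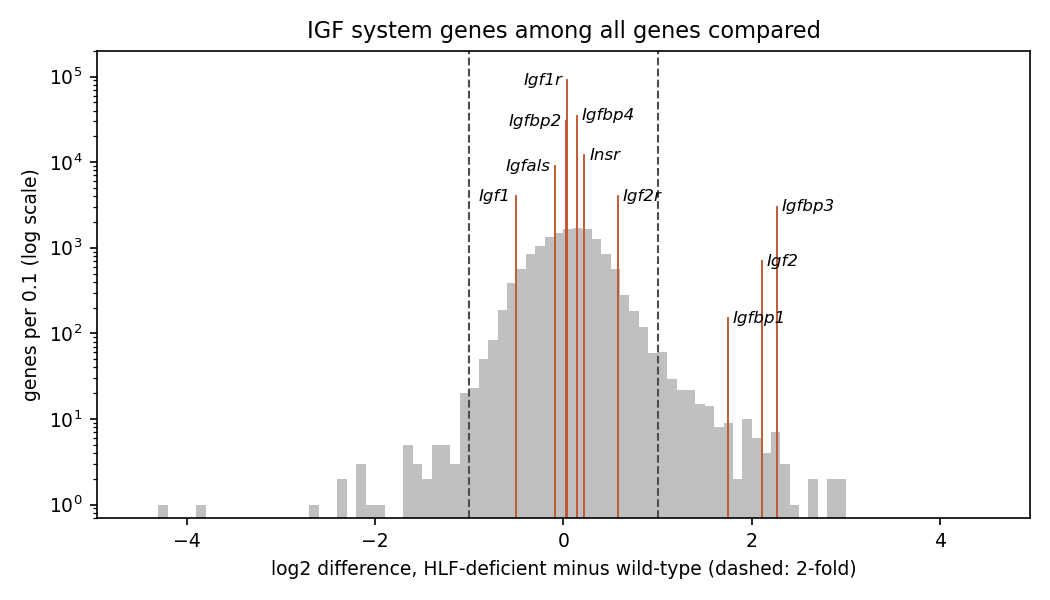
Number of genes per 0.1 of log2 difference (log scale, vertical axis) for all 14575 genes compared, with the 10 IGF system genes as labelled lines whose heights carry no value; dashed lines mark 2-fold. Igfbp1, Igf2 and Igfbp3 lie in the sparse upper tail and the other members in the central peak.

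The DNA upstream of these genes is shown to set the 3 genes with large differences beside Igf1, the member with the most negative one. The sequences are the 250 bases before the start of transcription, 5′ to 3′ on the strand of the gene, from RefSeq on GRCm38.p6, where 9 of the 10 members had an entry. Igf2 has 4 listed starts, and the start shown is the only one of them with a match to a motif searched. Capitals mark the matches. Igfbp1 lies at chr11:7197537-7197786 on the plus strand, Igfbp3 at chr11:7213924-7214173 on the minus strand, Igf2 at chr7:142658805-142659054 on the minus strand and Igf1 at chr10:87860861-87861110 on the plus strand.
Igfbp1: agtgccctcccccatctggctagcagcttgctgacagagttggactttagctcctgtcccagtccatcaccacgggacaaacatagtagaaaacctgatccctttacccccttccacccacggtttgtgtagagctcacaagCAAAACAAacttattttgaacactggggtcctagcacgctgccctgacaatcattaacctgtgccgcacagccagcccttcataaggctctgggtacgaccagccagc
Igfbp3: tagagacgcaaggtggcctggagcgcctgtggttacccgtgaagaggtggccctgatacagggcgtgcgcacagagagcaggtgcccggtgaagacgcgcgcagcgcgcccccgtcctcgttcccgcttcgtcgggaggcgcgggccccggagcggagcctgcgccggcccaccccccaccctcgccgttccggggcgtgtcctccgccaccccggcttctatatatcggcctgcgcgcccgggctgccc
Igf2: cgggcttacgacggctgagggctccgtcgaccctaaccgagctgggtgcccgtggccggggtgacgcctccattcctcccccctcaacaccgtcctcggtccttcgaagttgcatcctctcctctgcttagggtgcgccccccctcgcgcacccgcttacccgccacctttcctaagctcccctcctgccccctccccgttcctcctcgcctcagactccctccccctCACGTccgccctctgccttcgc
Igf1: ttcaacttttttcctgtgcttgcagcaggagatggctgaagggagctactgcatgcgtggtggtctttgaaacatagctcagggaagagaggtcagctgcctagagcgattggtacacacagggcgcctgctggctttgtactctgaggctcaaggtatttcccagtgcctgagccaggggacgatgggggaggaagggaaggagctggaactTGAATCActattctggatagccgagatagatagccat

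There were 5 motifs searched on both strands of the 15 windows of the members, and in the same window of all 32851 listed starts. The letters TTANGTAA, the core bound by PAR bZIP factors such as HLF, were in 0 of the 15 windows and in 2.06% of all windows. The insulin response core CAAAACAA, which FOXO factors bind, was found in Igfbp1, 108 bases before the start, and in 2.21% of all windows. The AP-1 motif TGANTCA was found in Igf1, 37 bases before the start, in 1 of the Igfbp2 windows, and in 6.75% of all windows. ACGTG, the core of hypoxia response elements and part of the E-box CACGTG, was found in 1 window each of Igf2, Igf2r and Igfbp2 and in 16.6% of all windows. TATAAA was found in Igfbp4 and in 12.4% of all windows. The Igfbp3 window held none of the 5 motifs and was rich in G and C, at 73.2% beside a median of 52.4% over all windows, while that of Igfbp1 was at 53.2%. A match of letters describes the window and shows no binding, and a missing match speaks only of these 250 bases.

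Igfbp1 and Igfbp3 are next to each other on chromosome 11, so the genes around the members were read in the same way. The 5 nearest compared genes on each side of Igfbp1 include Igfbp3. Of the other 9, 0 were beyond 2-fold in either direction. The most positive of them was Upp1, a uridine phosphorylase, at 0.82, and the most negative was Nacad at -0.34. Around Igf2 on chromosome 7, 0 of 10 neighbours were beyond 2-fold, and their median was -0.20. Mir483, the microRNA gene inside an intron of Igf2, was at 5.67 in the WT tumour and 4.98 in the HLF-deficient tumour, and so differed by -0.69 against the 2.11 of its host gene. The Mir483 value comes from 1 probe set, and whether that probe set reads the mature microRNA was not examined. Among all genes compared, 1.5% were higher and 0.364% lower by this rule, so a count of 0 among so few neighbours is near the common share. Whether the differences extend along either locus was not tested.

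**Figure D4:**
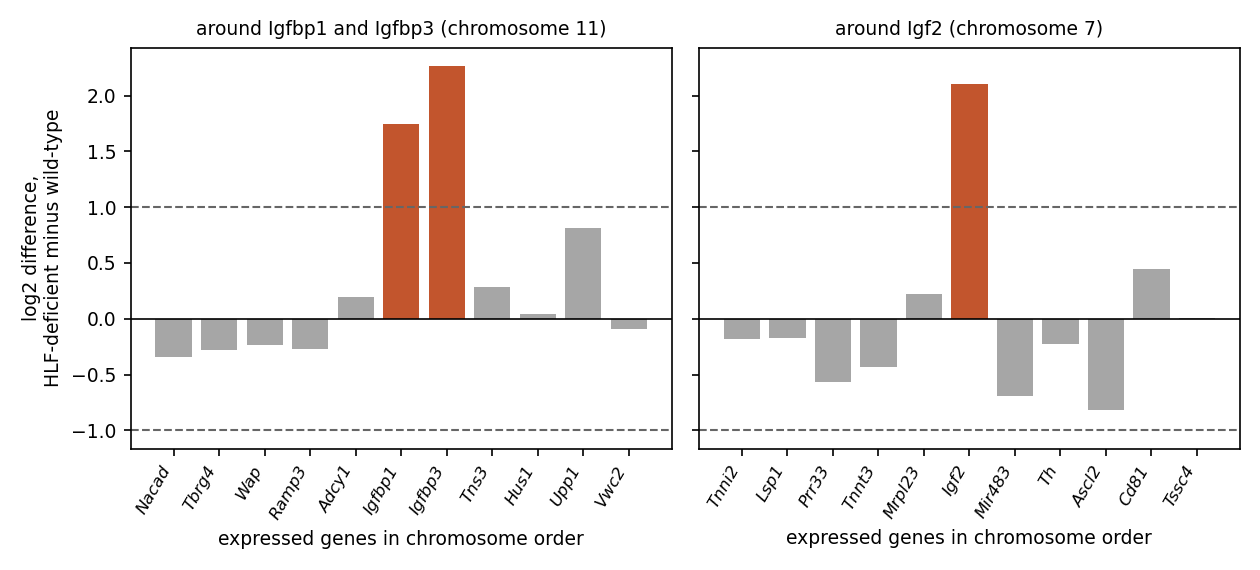
Log2 difference, HLF-deficient minus wild-type (bars, 1 array per genotype, no error bars), of the compared genes in chromosome order around Igfbp1 and Igfbp3 (left) and around Igf2 (right); dashed lines mark 2-fold. The coloured bars of Igfbp1 (1.74), Igfbp3 (2.27) and Igf2 (2.11) stand alone above the line.

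The rest of the pathway was read through 10 lists with 82 genes, of which 72 were matched to a probe set of a single gene and 68 were at or above the floor. By the 2-fold rule 2 were higher, Stc1 and Igf2bp3, and 0 were lower, beside the 1.5% and 0.364% of all genes given above. The median over the 68 genes was 0.24, beside 0.07 for all genes compared, with 51 positive and 17 negative values. Centring gave 60 positive values, quantile normalization 43 and removal of the trend 40, the last with a median of 0.07.

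Other IGFBP genes showed small differences. Igfbp5, the neighbour of Igfbp2, was at 3.92 in the WT tumour and 4.41 in the HLF-deficient tumour, and so differed by 0.49. Igfbp7, a vascular protein with weak affinity for IGF, was at 8.75 and 9.24 in the same order, also a difference of 0.49. Igfbp6, which prefers IGF2, differed by -0.10, a sign that turned under each of the 3 other scalings of the arrays, and Igfbpl1 did not reach the floor on either array.

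The lists that bear on how binding proteins release IGF and on how Igf2 RNA is bound held the only other genes beyond 2-fold. Stc1, a stanniocalcin of the family that inhibits the IGFBP-cleaving protease PAPP-A, had a level of 3.22 in the WT tumour, only 0.24 above the floor. In the HLF-deficient tumour Stc1 was at 5.14, 3.81-fold higher. Its relative Stc2 was close to the floor on both arrays, at 3.20 and 3.03. The protease gene Pappa was near the floor in the WT tumour and below it without HLF, and Pappa2 was below it on both. Htra1, a secreted serine protease, differed by 0.52, and Adam12, another protease of this list, by -0.03, or 0.09 with the arrays centred. Igf2bp3, an oncofetal protein that binds Igf2 RNA, was at 3.81 in the WT tumour and 4.85 in the HLF-deficient tumour, 2.06-fold higher, while Igf2bp1 was at -0.35.

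Downstream of the receptors no listed gene passed 2-fold with the values as deposited. The 15 compared receptor substrates and adaptors had a median of 0.18, with Irs1 and Irs2, the docking proteins of both receptors, nearly level at 0.05 and 0.04. Socs3, a feedback inhibitor, and Ptpn1, a phosphatase of the insulin receptor, had the most positive values, 0.80 and 0.47, although a dimmer probe set of Socs3 was at -0.14. Irs3 and Socs1 were lowest at -0.38 and -0.13. The PI3K, AKT and mTOR chain had 23 compared genes with a median of 0.30, from Foxo6 at -0.48 and Foxo3 at -0.11 to Gsk3b at 0.52 and Rictor at 0.59. Both medians shrank when the trend with level was removed, to 0.0032 for the adaptors and 0.08 for the chain, and the all-gene median was then 0.0085.

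The insulin and FOXO response list was also read. It holds genes that insulin represses in hepatocytes, as it does Igfbp1, and others. G6pc, glucose 6-phosphatase, was at 7.69 in the WT tumour and 8.64 in the HLF-deficient tumour, and Pck1, the gluconeogenic carboxykinase, was at 8.22 and 9.16. Their differences of 0.95 and 0.94 fell just short of 2-fold, passed it with the arrays centred, at 1.07 and 1.06, and were 0.84 each after quantile normalization and 0.79 and 0.80 with the trend removed. Ppargc1a, another gene of this list, was nearly level at 0.08 in the brighter of its probe sets. It was at -0.09 after quantile normalization and -0.12 with the trend removed. Over the 9 compared genes of the list the median was 0.14, with Klf15 and Sesn1 lowest at -0.11 and -0.10. Both were just above 0 with the arrays centred, at 0.01 and 0.02. They were at -0.30 and -0.22 after quantile normalization and at -0.32 and -0.26 with the trend removed. The median of the list turned to -0.06 after quantile normalization and -0.08 after removal of the trend with level.

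The growth hormone axis, whose signalling drives Igf1 and Igfals in liver, had no member with a negative value as deposited. Its 6 compared genes had a median of 0.41. Ghr, the growth hormone receptor, was at 8.55 in the WT tumour and 8.69 in the HLF-deficient tumour. Jak2 and Cish were highest at 0.71 each, and Stat5b, the factor that activates Igf1, was at 0.61. Socs2, a target of Stat5b, was at 0.21 in the brighter of its probe sets and at 0.0013 in the dimmer one. After removal of the trend with level the median was 0.19 and 3 of the 6 were positive.

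In the mannose 6-phosphate pathway, whose cargo Igf2r also carries, the median of 3 genes was 0.29, with Gnptab at 0.75 and Gnptg at -0.25. Ins2 was below the floor on both arrays, and Insrr, the insulin receptor relative, was at the floor in the WT tumour and below it without HLF.

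**Figure D5:**
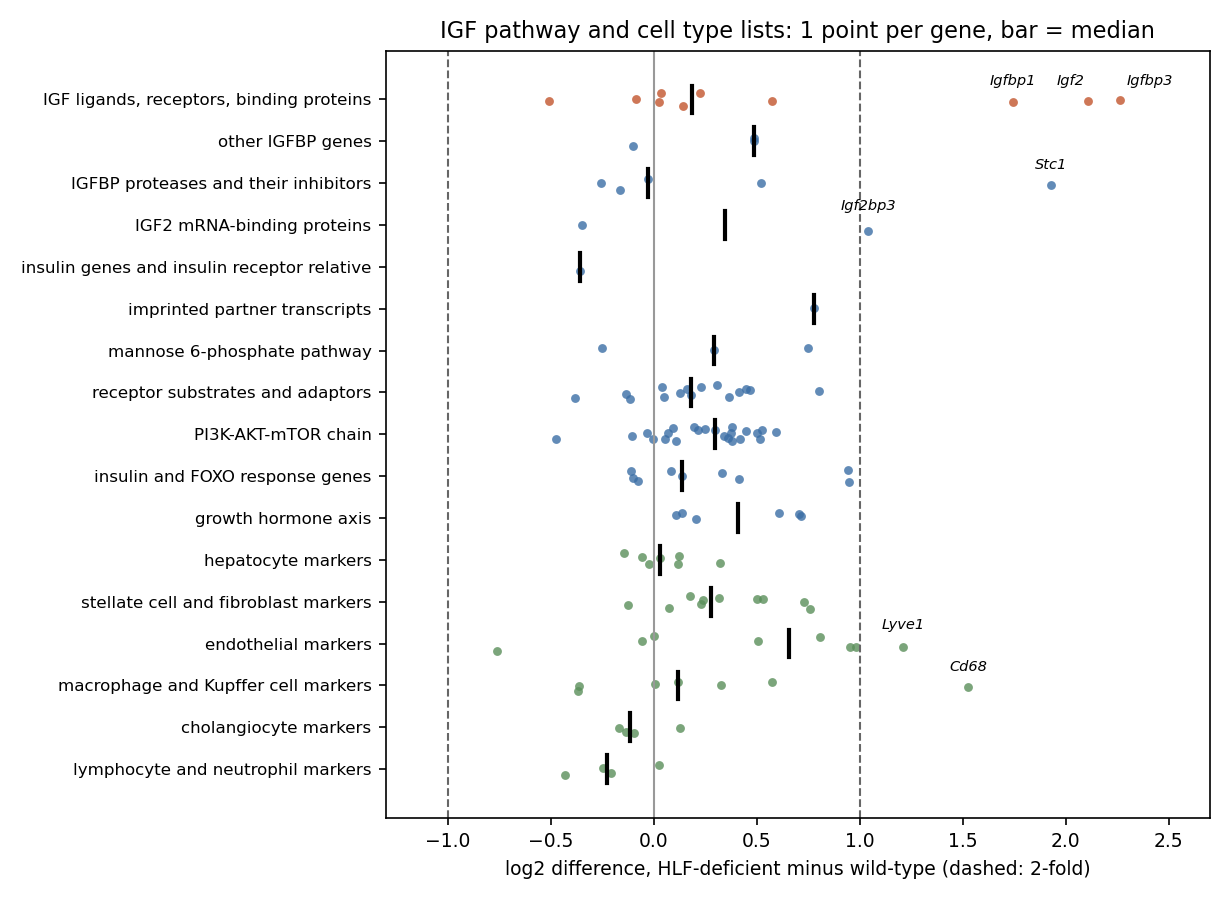
Log2 difference, HLF-deficient minus wild-type (horizontal axis), with 1 point per gene at or above the floor and a bar at the list median, for the IGF system genes (top), the pathway lists and the cell type marker lists; dashed lines mark 2-fold. Of the pathway genes only Stc1 and Igf2bp3 join Igfbp1, Igf2 and Igfbp3 beyond 2-fold, and among the markers Lyve1 and Cd68.

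Markers of other cell types in the tissue are given because several binding proteins are also made outside hepatocytes, Igfbp3 in liver mainly by cells other than hepatocytes. Of the 8 endothelial markers, 1 was higher by 2-fold, Lyve1 at 1.21, and the median was 0.66, or 0.46 after quantile normalization and 0.44 with the trend removed. The lowest of the list were Clec4g at -0.76, or -0.95 with the trend removed, and Stab2 at -0.06, or 0.07 with the arrays centred. The levels of the list, summed on the linear scale, came to 675 in the WT tumour and 868 in the HLF-deficient tumour. Cdh5 and Emcn, at 0.95 and 0.98 as deposited, passed 2-fold with the arrays centred and lay at 0.80 and 0.83 after quantile normalization. Of the 7 macrophage and Kupffer cell markers, 1 was higher by 2-fold, the lysosomal protein gene Cd68 at 1.53, and the median was 0.12. The lowest were Clec4f at -0.37 and Vsig4 at -0.36. The rest of the list were Timd4 at 0.0064, Marco at 0.12, Csf1r at 0.32 and Adgre1 at 0.57. The summed level was 368 in the WT tumour and 417 in the HLF-deficient tumour. The 10 stellate cell and fibroblast markers had a median of 0.28 with 0 beyond 2-fold and summed levels of 726 and 865 in the same order. All markers of these 3 lists were above the floor on at least 1 array. The part of these cells in the higher Igfbp3, Igfbp7 and Igf2 was not tested. The 7 hepatocyte markers had a median of 0.03, or -0.0009 with the trend removed, between -0.15 for Alb and 0.32 for Tat. Cholangiocyte markers had a median of -0.12 over 4 genes, which turned to slightly above 0 under the other scalings, and lymphocyte and neutrophil markers had one of -0.23 over the 4 genes above the floor.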

How the data were processed

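The deposited values are log2 expression levels that the authors made with RMA in Affymetrix Expression Console, per the submitters' processing notes; the version and the arrays normalized together are not given in the sources used here. RMA corrects background, normalizes between arrays and summarises probes, and compresses differences near background. The log2 scale was inferred from their range of 0.25 to 12.7. Platform annotation named 1 gene for 21789 of 35556 probe sets, several for 1621 and none for 12146; only the first kind was used. For the 999 genes with several probe sets, the one with the highest mean was taken. The floor came from 1248 chemoreceptor probe sets.

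No test was possible with 1 array per genotype, so a fixed 2-fold rule was applied; precision is limited by the number of arrays. The members, lists and rules were chosen with earlier results of these data known. Named are all members, genes of each list beyond 2-fold and up to 2 more in each direction, and some pathway genes listed by name beforehand. Adam12, Pappa2, Igfbpl1, Ins2, Mir483, Upp1, Nacad, Timp3, Cdc6, Cdh5, Ttr, Apoa1, Timd4, Marco, Csf1r and Ppargc1a fall outside that rule. All of these were named after their values were seen. Genes of like pattern were not sought, since 2 arrays give no measure of likeness. Alternatives were centring, quantile normalization, a loess trend with a span of 0.4 removed, probe sets averaged per gene, a floor at the 99th percentile, no floor, values set to the floor, and a 1.5-fold rule. The steps were checked on simulated arrays made from the WT levels with added noise and known fold changes. Those arrays held no trend with level and no spread between tumours, so the check covers the calculation and not the error in these data. Python 3.11.15, pandas 2.3.3 and statsmodels 0.14.6 were used.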

Additional observations from a re-analysis of the deposited data

How the results depend on the processing

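Under each of the 7 alternatives to the scaling, probe set and floor, the same 3 genes were beyond 2-fold and 0 members were lower by 2-fold. Only centring, quantile normalization and removal of the trend could move these 3 genes. All members were above every floor used, and each of the 3 has 1 probe set. The floor and probe set alternatives therefore repeat their deposited values. The values ranged from 2.06 to 2.39 for Igfbp3, from 1.97 to 2.23 for Igf2 and from 1.63 to 1.87 for Igfbp1. The members' median ranged from 0.08 with the trend removed to 0.31 with the arrays centred, where the all-gene medians were 0.0085 and 0.20; centring added 0.12 to every difference. Of the 7 small differences, those of Igfbp2 and Igfals changed sign under 2 and 1 of the alternatives, and those of Igf1, Igf1r, Igf2r, Igfbp4 and Insr did not. No paired analysis was possible because each genotype had 1 sample, and no array could be left out. Igf2 and Igf1r in the wild-type tumour were 1.06 and 1.21 above the floor, where RMA understates differences.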

Other observations

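The genes around the other members were also read, with up to 5 compared genes on each side. Among all genes compared, 1.5% were higher and 0.364% lower by 2-fold. Around Igf1, 1 of 10 neighbours was beyond 2-fold, Timp3, an inhibitor of matrix metalloproteinases, at 1.03. Around Igfbp4, 1 of 10 was lower by 2-fold, the replication licensing gene Cdc6, at -1.05. Around Igf1r, Igf2r, Igfbp2, Igfals and Insr, 0 neighbours were beyond 2-fold; Insr had 5 compared neighbours, all on 1 side. The imprinted transcript H19 beside Igf2 is not analysed here.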
